A study of Caenorhabditis elegans with 13 samples.

Results

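The genes described here were raised in embryonic body wall muscle of Caenorhabditis elegans at both times profiled, and carried no gene name beyond the label of the clone or cosmid on which they were predicted. A gene was taken when its annotation held only such a sequence-style name, when the mean log2 intensity of the muscle arrays exceeded that of the reference arrays by at least 1 (2-fold) at 0 hr and again at 24 hr, and when every muscle array was above every reference array at both times. ZK792.7 was left out by the rule, and a gene with several probe sets was represented by its brightest. These criteria were met by 76 genes, out of 6717 with a sequence-style name and 17118 genes with a probe set of their own. Their enrichment in muscle at each time therefore chose them, and it is given as a description without a test.

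Muscle cells were sorted by flow cytometry for green fluorescent protein (GFP) driven by the myo-3 promoter, from embryos of a strain with an integrated myo-3::GFP transgene (PD4251). Freshly dissociated muscle cells (M0, 3 arrays) were set against all viable cells of freshly dissociated N2 wild-type embryos (R0, 3 arrays), and muscle cells cultured for 24 hr (M24, 3 arrays) against all viable N2 cells cultured likewise (R24, 4 arrays). The transgene also labels a few enteric muscles, the reference cells carry no transgene and include muscle cells, and strain and cell type cannot be told apart in this design. A higher value in muscle can stand for more transcript per cell or for more cells that hold it, which bulk arrays cannot separate.

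Body wall muscle of the worm consists of single-nucleus cells in which the sarcomere lies along the cell edge and is fixed to the basement membrane through dense bodies, so that muscle needs contractile proteins together with matrix, adhesion and secretory machinery. HLH-1, the worm MyoD, and UNC-120, a serum response factor relative, are transcription factors that set up this cell type, and MYO-3 and UNC-54 are myosin heavy chains of its thick filaments. Genes that are known only by a predicted coding sequence are found next to such well-studied genes in any tissue profile, and little can be said of them beyond where they are transcribed and what protein class the sequence belongs to.

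The labels of the arrays fitted their marker genes. The log2 enrichment of myo-3 was 2.80 ± 0.44 at 0 hr and 1.79 ± 0.41 at 24 hr (SE, n = 3 muscle and 3 or 4 reference arrays), that of unc-54 was 2.20 ± 0.47 and 2.09 ± 0.44, that of hlh-1 was 2.61 ± 0.26 and 2.38 ± 0.24, and that of unc-120 was 2.22 ± 0.43 and 2.26 ± 0.40. Of 34 body wall muscle markers, 30 were raised at 0 hr and 30 at 24 hr (limma, adjusted p under 0.05 and at least 1.7-fold). Of 18 neuronal markers, 11 were lower in muscle at 0 hr and 9 at 24 hr, and of 14 epidermal markers 10 were lower at each time. Other lists moved less. Of 10 intestinal markers 0 were lower at 0 hr and 1 was at 24 hr (medians 0.01 and -0.27), while cpr-1, an intestinal protease gene, was raised at 24 hr by 1.58. Of 12 germline and maternal markers 0 were lower at 0 hr and 2 at 24 hr (medians 0.27 and 0.12), of 9 pharyngeal markers 4 and 1 were lower and 1 was raised at 0 hr, and of 3 coelomocyte markers 2 were lower at 0 hr and 0 at 24 hr. The summed intensity of the body wall muscle list ran from 62870 to 75810 on the M0 arrays, against 15920 to 26070 on the R0 arrays, and from 30870 to 57030 on the M24 arrays, against 11240 to 15930 on the R24 arrays. The lowest M24 sum belonged to replicate 3, the other M24 arrays being at 57030 and 49320. On that array the middle 80% of all probe sets spanned 3.92 log2 units, against 4.50 and 4.86 on the other M24 arrays and 4.57 to 4.85 on the R24 arrays.

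In all 17118 genes the same thresholds were passed by 3.39% at 0 hr, 2.29% at 24 hr and 1.38% at both times. The share at both times was 1.13% among genes with a sequence-style name and 1.55% among genes with another name, which is 161 genes. The 76 genes had a median log2 enrichment of 2.06 at 0 hr (range 1.03 to 3.91) and 1.76 at 24 hr (range 1.01 to 3.36). The 161 genes with other names, chosen by the same thresholds, had medians of 2.13 and 1.78. Among all genes the medians were 0.10 at either time. By size, 41 of the 76 genes were at least 4-fold higher in muscle at 0 hr, 30 at 24 hr and 23 at both times, while 6 genes passed 8-fold at 0 hr and 2 did at 24 hr. These counts depended on single arrays. At 24 hr 16 genes were at least 4-fold higher without M24 replicate 1 and 42 without M24 replicate 3, and at both times 13 and 29 were. The count over 8-fold at 0 hr was 13, 12 and 11 without M0 replicate 2, R0 replicate 1 and R0 replicate 3. It was 4 without R0 replicate 2 and 5 without M0 replicate 1.

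A protein class was found for only a minority of the 76 genes. For 25 the search of the study's tables made here found no entry, so that their class was not determined. The study describes an annotation of every probe set on the array, so such a miss is not read as a lack of annotation. The search found 51 of the probe sets, and 24 of these carried a class of eukaryotic orthologous groups. Of these classes 9 said no more than unnamed or uncharacterised. The other 15 named a more specific class, such as an enzyme, a matrix protein or a leucine-rich repeat protein. RefSeq listed all 76 under their sequence-style names, 75 as protein coding and C05D2.11 as a non-coding RNA. For 4 of the 76 genes the search found primers in the study's list of promoter::GFP reporters. The study scored its reporters for expression in muscle of living worms, and the outcome for these 4 is not given here. The upstream primer of each, which fixes the far end of the fragment joined to GFP, is shown.
F09B9.4: ctgccgtgaagcgaaacagat
R04B5.6: ttgttcctgaggtatctgctc
T12D8.9: gtagtcaatgagtgtttgccac
K06A9.3: cacgagctcattcaaatggag
The primers hold no capitals because no motif was marked in them. Of these 4 genes, F09B9.4 and R04B5.6 had the largest 0 hr enrichments of the 76, and T12D8.9 had 3.35 at 24 hr, next to the highest.

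F09B9.4, which has no class in the annotation, led the list by the mean of both enrichments. Its RMA intensity (the authors' normalised probe set value, on a linear scale) was 1372, 992 and 1060 on the M0 arrays, against 113, 48.2 and 78.8 on the R0 arrays. After culture it was 701, 1019 and 175 on the M24 arrays, against 104.2, 108, 95.2 and 68.4 on the R24 arrays. The lowest M0 array was thus many times the highest R0 array, while the lowest M24 array came near the reference. The log2 enrichment was 3.91 ± 0.51 at 0 hr, a 15-fold difference of geometric means, and 2.43 ± 0.48 at 24 hr, or 5.41-fold (SE, n = 3 against 3 and 3 against 4).

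F46C5.6 was next by the mean of both enrichments. It measured 2483, 2198 and 2382 on the M0 arrays, against 333, 157 and 323 on the R0 arrays, and 607, 1024 and 297 on the M24 arrays, against 79.4, 105, 85.1 and 66.2 on the R24 arrays. The M0 arrays lay close together and the M24 arrays were spread over more than 3-fold, with no overlap at either time. Its enrichment was 3.20 ± 0.39 at 0 hr and 2.78 ± 0.36 at 24 hr. A second, dimmer probe set of the gene gave 2.44 and 1.27 and also separated muscle from reference on every array.

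T12D8.9 and Y17D7B.4 stood out at 24 hr. T12D8.9 measured 1169, 968 and 248 on the M24 arrays, against 85.1, 63.6, 59.6 and 53.1 on the R24 arrays, and 456, 299 and 874 on the M0 arrays, against 124, 78.4 and 115 on the R0 arrays. Its log2 enrichment was 2.25 ± 0.51 at 0 hr and 3.35 ± 0.48 at 24 hr. Y17D7B.4 measured 1141, 1138 and 254 on the M24 arrays, against 75.5, 63.9, 87.3 and 48.8 on the R24 arrays, and 896, 347 and 329 on the M0 arrays, against 105, 177 and 105 on the R0 arrays. Its enrichment was 1.91 ± 0.54 at 0 hr and 3.36 ± 0.50 at 24 hr, the highest of the 76 at that time. With all arrays these were the only members over 8-fold at 24 hr, and in both genes replicate 3 of M24 was under 0.3 of either other M24 array. Without that array 13 members were over 8-fold and the highest enrichment was 4.08, and without M24 replicate 1 no member was.

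The other 6 genes among the first 10 were T10G3.1, EGAP4.1, K09A9.6, W06A7.2, C49A1.10 and F35A5.1. No described protein class was found for any of them, and K09A9.6 and W06A7.2 were missed by the search of the study's tables. The probe set of F35A5.1, which the study's table lists under K03C7.1, carried annotation terms for nucleosome and DNA binding. EGAP4.1 measured 2079, 1157 and 1447 on the M0 arrays, against 314, 162 and 356 on the R0 arrays, and 484, 387 and 222 on the M24 arrays, against 74.2, 51.2, 38.7 and 36.9 on the R24 arrays. Its enrichment was 2.53 ± 0.38 at 0 hr and 2.84 ± 0.35 at 24 hr. W06A7.2 had the smallest errors of the 10, with 2.99 ± 0.24 at 0 hr and 2.23 ± 0.22 at 24 hr: it measured 1763, 1356 and 1408 on the M0 arrays, against 213, 152 and 206 on the R0 arrays, and 736, 767 and 435 on the M24 arrays, against 134, 163, 134 and 106 on the R24 arrays. The other 4 lay between 2.35 and 2.87 at 0 hr and between 2.31 and 2.81 at 24 hr.

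**Figure D1:**
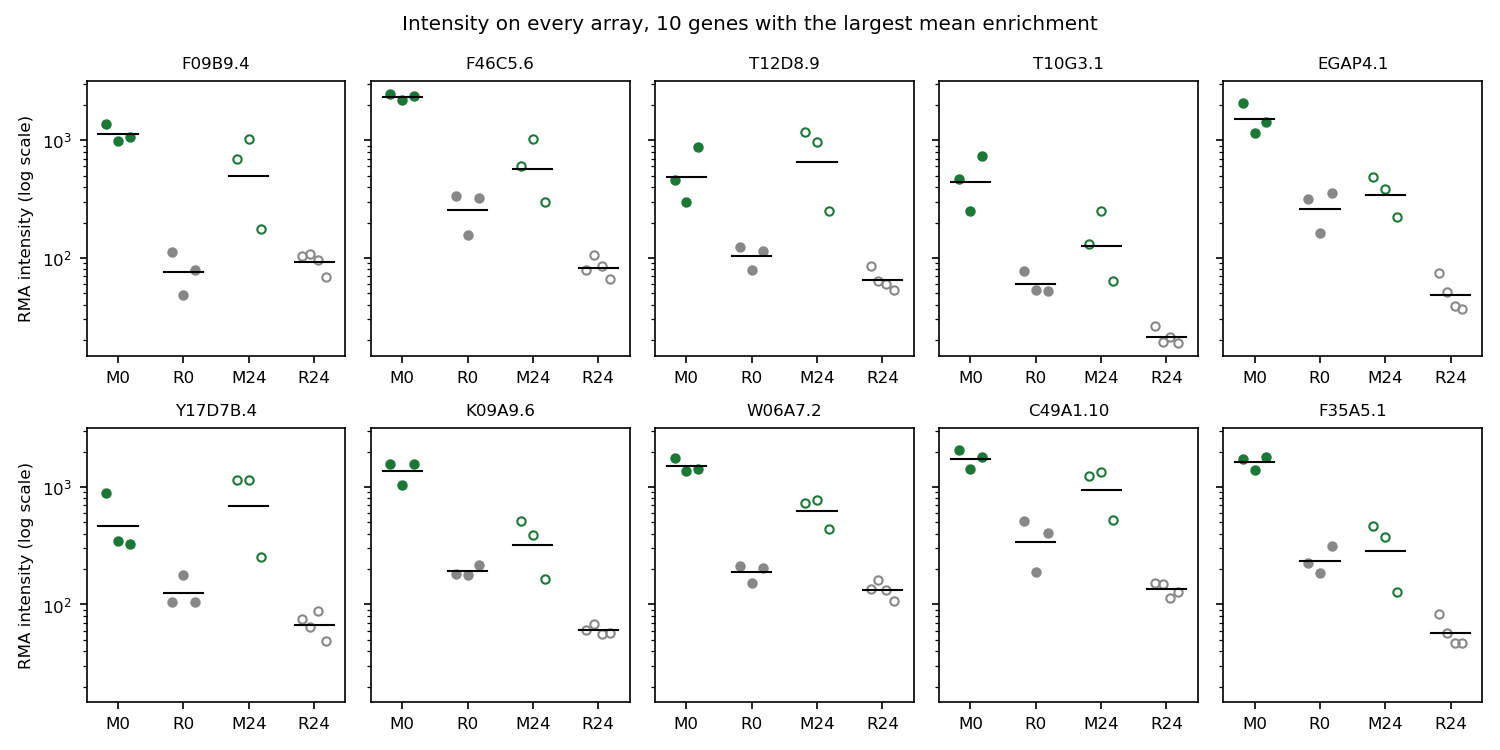
RMA intensity on a log axis for the 10 genes with the largest mean of both enrichments, 1 point per array (filled at 0 hr, open at 24 hr, green for muscle and grey for reference) with a bar at the geometric mean. Muscle and reference arrays do not overlap in any panel, as the rule required, and M24 replicate 3, the rightmost M24 point, is the lowest M24 array in each; intensities of different genes are not comparable.

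Some members were taken for the strong signal of their probe sets in muscle, which sets no order of transcript levels between genes: C29F5.1, T04B2.3, Y69E1A.5 and F46C5.6 in fresh muscle, and C29F5.1, Y53H1B.2, R05D7.1 and B0379.1 in cultured muscle. C29F5.1 measured 4021, 3497 and 4369 on the M0 arrays, against 1016, 356 and 853 on the R0 arrays, and 2378, 2522 and 1875 on the M24 arrays, against 365, 530, 380 and 435 on the R24 arrays. Its M24 arrays lay close together. Its enrichment was 2.55 ± 0.31 at 0 hr and 2.40 ± 0.30 at 24 hr. Y53H1B.2 measured 2528, 2409 and 958 on the M24 arrays, against 260, 356, 395 and 244 on the R24 arrays, an enrichment of 2.55 ± 0.31, and it had 2.102 ± 0.33 at 0 hr. R05D7.1 was the steadier of these genes, with 1854, 1952 and 1713 on the M0 arrays, against 576, 433 and 472 on the R0 arrays, and 1553, 2027 and 1462 on the M24 arrays, against 621, 798, 618 and 590 on the R24 arrays. Its enrichment was 1.91 ± 0.17 and 1.35 ± 0.16.

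Among members with a described class, 2 belong to thiol chemistry and protein folding. D2092.4 belongs to the thioredoxin and protein disulfide isomerase class, whose members form and rearrange disulfide bonds in the secretory pathway. It measured 310, 206 and 370 on the M0 arrays, against 64.2, 39.2 and 50.5 on the R0 arrays, and 826, 722 and 157 on the M24 arrays, against 79.1, 100, 84.9 and 76.5 on the R24 arrays. Its enrichment was 2.51 ± 0.49 and 2.42 ± 0.46. F37H8.5 is of the gamma-interferon inducible lysosomal thiol reductase class, enzymes that in mammals reduce disulfide bonds in the lysosome. It had 2.42 ± 0.31 at 0 hr and 2.06 ± 0.29 at 24 hr, with 885, 812 and 436 on the M24 arrays, against 171, 157, 184 and 141 on the R24 arrays.

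The matrix-related members lay close to the 2-fold minimum at 24 hr. C48E7.6 was listed as a proteoglycan, a core protein of the kind that carries sugar chains outside cells, and lay just inside the rule at 24 hr, with 219, 314 and 271 on the M24 arrays, against 113, 121.9, 138 and 160 on the R24 arrays. Its enrichment was 1.93 ± 0.24 at 0 hr and 1.01 ± 0.22 at 24 hr. Y73F8A.26 was listed as leprecan, a relative of the vertebrate proteins that hydroxylate collagen prolines in the endoplasmic reticulum. It had 1.30 ± 0.20 at 0 hr and 1.05 ± 0.18 at 24 hr, from 243, 204 and 327 on the M0 arrays, against 117, 82.8 and 113 on the R0 arrays, and from 117, 142 and 130 on the M24 arrays, against 65.6, 55.3, 72.0 and 58.01 on the R24 arrays.

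Lipid enzymes made up 3 of the described members. Y53G8B.2, of the diacylglycerol acyltransferase class that makes storage triglyceride, had 2.36 ± 0.36 at 0 hr and 2.03 ± 0.34 at 24 hr. It measured 1139, 821 and 330 on the M24 arrays, against 124, 180, 164 and 207 on the R24 arrays. B0272.3, a 3-hydroxyacyl-CoA dehydrogenase by class and so a fatty acid oxidation enzyme, had 1.87 ± 0.22 and 1.13 ± 0.21. C07E3.9, of the phospholipase A2 class that frees a fatty acid from a phospholipid, was dim throughout, with 116, 52.3 and 57.5 on the M0 arrays, against 22.3, 17.9 and 22.04 on the R0 arrays, and had 1.77 ± 0.42 and 1.58 ± 0.39.

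R04B5.6, of the sorbitol dehydrogenase class that interconverts sugar alcohols and sugars, was raised strongly in fresh muscle and little after culture. It measured 1094, 424 and 883 on the M0 arrays, against 92.5, 27.4 and 62.4 on the R0 arrays. On the M24 arrays it was 105, 44.9 and 30.5, against 25.6, 21.3, 23.1 and 27.1 on the R24 arrays, so that M24 replicate 3 lay just above the highest reference array. Its enrichment was 3.78 ± 0.49 at 0 hr and 1.11 ± 0.46 at 24 hr. Its neighbour in gene order, R04B5.5, had 3.76 ± 0.34 at 0 hr and -0.24 ± 0.31 at 24 hr and so was no member. The probe set of R04B5.6 is of the kind marked s, in which probes can be shared between transcripts, so signal from a related transcript cannot be told apart. T03G6.3, of the nucleotide pyrophosphatase and phosphodiesterase class, had 2.01 ± 0.46 and 1.34 ± 0.43.

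The remaining described members had single representatives. Y69E1A.5, of the phosphatidylethanolamine binding protein class, whose mammalian members include inhibitors of Raf kinase signalling, measured 2550, 2454 and 2572 on the M0 arrays, against 542, 175 and 350 on the R0 arrays, and 863, 501 and 830 on the M24 arrays, against 242, 194, 236 and 74.7 on the R24 arrays. Its enrichment was 2.97 ± 0.46 and 2.07 ± 0.43, and M24 replicate 3 was not its lowest M24 array. F10G2.1, a predicted secreted cysteine-rich protein found only in C. elegans, had 2.34 ± 0.36 and 2.01 ± 0.33. Y37D8A.2, a conserved Lama protein, had 2.34 ± 0.54 and 2.13 ± 0.51, and C03H5.5, listed as the RNA polymerase I-associated factor PAF67, had 1.79 ± 0.40 and 2.03 ± 0.38. Y44A6D.3, annotated to DNA binding and regulation of transcription, had 1.67 ± 0.32 and 1.64 ± 0.30. T01E8.1, a leucine-rich repeat protein, had 1.23 ± 0.34 and 1.67 ± 0.32, and Y38F1A.2, a predicted E3 ubiquitin ligase, had 1.15 ± 0.25 and 1.05 ± 0.24. The smallest mean of both enrichments was that of Y105E8A.11, of the BolA-related class, with 1.04 ± 0.33 and 1.05 ± 0.31: its lowest M0 array was 546, against 490 on its highest R0 array. As a set, the 15 genes with a described class had medians of 1.93 at 0 hr and 1.58 at 24 hr. The other 61 had 2.24 and 1.79, and they include the 25 that the search of the study's tables missed.

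**Figure D2:**
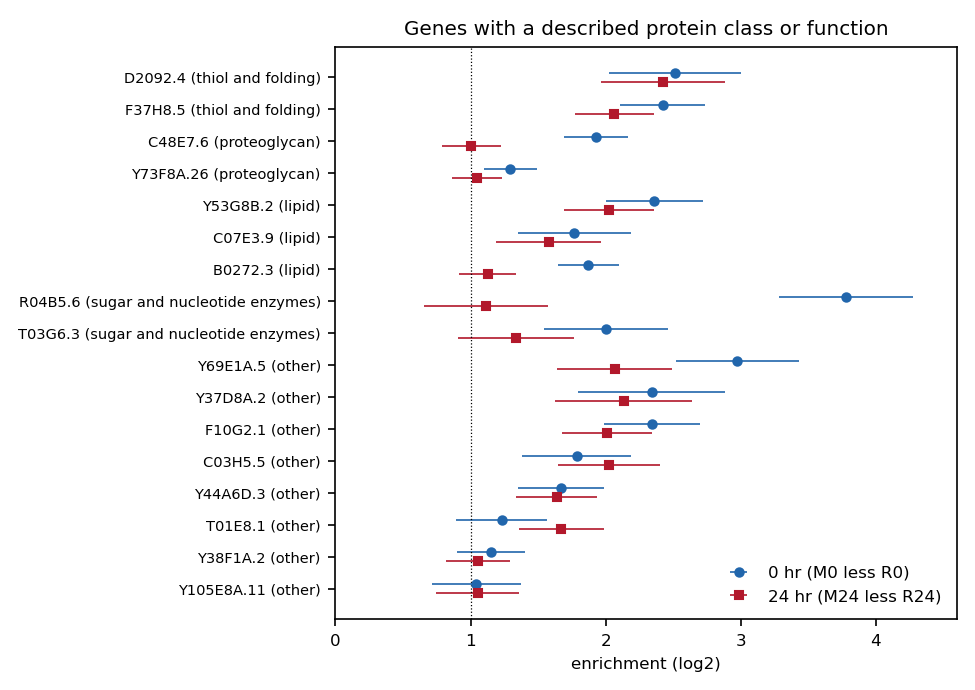
Log2 enrichment at 0 hr (circles, M0 less R0) and 24 hr (squares, M24 less R24) for the 15 members with a described protein class, the Lama protein Y37D8A.2 and the DNA-binding Y44A6D.3, with bars of 1 SE from the limma fit and a dotted line at the 2-fold minimum. R04B5.6 has the widest gap between times (3.78 and 1.11), and D2092.4 lies at 2.51 and 2.42.

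The 37 members outside the rule for named genes had medians of 1.99 at 0 hr and 1.67 at 24 hr, and the examples given of them were picked after their values were seen. At least 4-fold higher in muscle at both times were 5 of them, C46G7.2, T05E7.4, K08C7.6, F08F3.10 and ZK809.8. F08F3.10 had the widest separation of all members at 24 hr, with 390, 521 and 380 on the M24 arrays, against 73.7, 77.7, 80.3 and 72.0 on the R24 arrays, and an enrichment of 2.24 ± 0.39 at 0 hr and 2.49 ± 0.37 at 24 hr. Another 13 passed 4-fold at 0 hr alone, among them H12D21.9 (2.87 and 1.75), F21D9.4 (2.73 and 1.62) and K06A9.3, with a listed reporter (2.00 and 1.44). At 24 hr alone 2 passed it, Y45F10B.13 and W08A12.2. Y45F10B.13 measured 418, 379 and 78.3 on the M24 arrays, against 31.4, 42.3, 35.5 and 27.9 on the R24 arrays, and had 1.82 ± 0.50 at 0 hr and 2.77 ± 0.46 at 24 hr. The other 17 stayed under 4-fold at both times. C13F10.1 was among the least raised of these but the most even over replicates: it measured 514, 495 and 413 on the M0 arrays, against 221, 215 and 206 on the R0 arrays, and 211, 205 and 271.5 on the M24 arrays, against 97.05, 99.0, 96.4 and 93.2 on the R24 arrays. Its enrichment was 1.14 ± 0.14 and 1.24 ± 0.13, the smallest errors of the 76. Most members were brighter than the typical probe set (the median of the array, with as many probe sets below as above) even in the reference. Their mean was below it for 0 of the 76 in M0 against 6 in R0, and for 1 in M24 against 19 in R24.

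Whether enrichment itself differed between fresh and cultured muscle was tested as the difference of log2 enrichments, 24 hr less 0 hr, in a limma fit over all 22548 probe sets. A gene was called at an adjusted p under 0.05 and a difference of at least 1.7-fold. The difference is built from the same arrays that chose the members, so the share of members called says nothing of them as a set. Of the 76 genes 3 were called with a larger enrichment at 0 hr and 0 with a larger enrichment at 24 hr, where the background over all genes was 0.952% and 1.04%. At an unadjusted p under 0.05 the numbers were 10 and 2 of the 76, beside 1199 and 1083 of all 17118 genes. Of the 161 genes with other names, 5 and 0 were called.

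The called genes were F36F2.1, Y71H2B.4 and ZC374.2. F36F2.1, an uncharacterised conserved protein, measured 925, 475 and 539 on the M0 arrays, against 78.7, 48.0 and 52.6 on the R0 arrays. On the M24 arrays it was 302, 144 and 148, against 77.2, 87.3, 85.1 and 76.5 on the R24 arrays. Its enrichment was 3.41 ± 0.31 at 0 hr and 1.19 ± 0.29 at 24 hr, a difference of -2.21 ± 0.42 (adjusted p = 0.021, limma). The call was lost without R0 replicate 3 or R24 replicate 2, where the adjusted p reached 0.060.

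Y71H2B.4 measured 2699, 2209 and 1766 on the M0 arrays, against 322, 208 and 266 on the R0 arrays, and 1390, 971 and 898 on the M24 arrays, against 408, 595, 655 and 362 on the R24 arrays. The enrichment was 3.07 ± 0.27 at 0 hr and 1.12 ± 0.25 at 24 hr, and the difference was -1.95 ± 0.37 (adjusted p = 0.020, limma). ZC374.2 measured 729, 545 and 1023 on the M0 arrays, against 106, 61.0 and 55.1 on the R0 arrays, and 121, 136 and 119.2 on the M24 arrays, against 46.9, 40.5, 55.2 and 37.8 on the R24 arrays. Its enrichment was 3.39 ± 0.27 and 1.49 ± 0.25, and the difference was -1.90 ± 0.37 (adjusted p = 0.022, limma). In none of these 3 genes did the difference hinge on M24 replicate 3, without which all remained called. Leaving out R0 replicate 3 ended every call, and single further arrays ended the call of Y71H2B.4 (M0 replicate 1) and of ZC374.2 (M0 replicate 3, R0 replicate 2, M24 replicate 1). With the replicate number as a block, F36F2.1 stayed called, and Y71H2B.4 (adjusted p = 0.052, limma) and ZC374.2 (adjusted p = 0.063) were not.

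R04B5.6 had a larger difference than any called gene, -2.67 ± 0.68, but it missed the threshold (adjusted p = 0.074, limma). It was called without M0 replicate 2, without M24 replicate 1, with the replicate block (adjusted p = 0.039, limma), with array weights (adjusted p = 0.024) and among probe sets above the median level (adjusted p = 0.043). In the other direction Y17D7B.4 differed by 1.45 ± 0.74 (adjusted p = 0.45, limma), F47B3.3 by 1.21 ± 0.39 (adjusted p = 0.17), T12D8.9 by 1.10 ± 0.70 (adjusted p = 0.59) and F28H1.4 by 1.02 ± 0.34 (adjusted p = 0.18). None of these was called. Without M24 replicate 3, Y17D7B.4, F28H1.4 and Y45F10B.13 were called with differences of 2.18, 1.29 and 1.73.

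**Figure D3:**
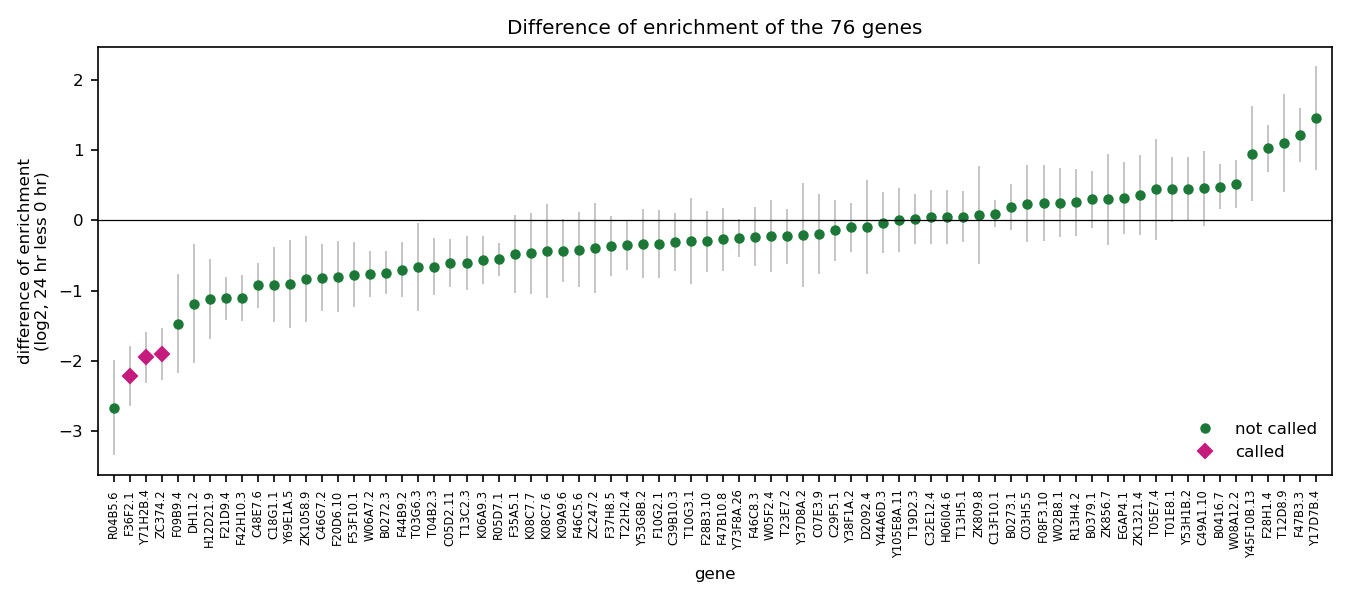
Difference of log2 enrichment, 24 hr less 0 hr, for the 76 genes in ascending order, with bars of 1 SE from the limma fit. The 3 called genes (diamonds) lie between -2.21 and -1.90, and the 27 genes above 0 end at Y17D7B.4 with 1.45.

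Over the 76 genes the median difference was -0.28, with 49 genes below 0 and 27 above. The corresponding medians were -0.24 over the 161 genes with other names and 0.00 over all genes. The median difference moved with single arrays: it was -0.10 without R0 replicate 2, -0.47 without M0 replicate 2 or M24 replicate 1, -0.48 without M24 replicate 2, and above 0 without M24 replicate 3 alone. On the M24 arrays the median of the 76 genes stood 2.14, 2.17 and 1.13 log2 units above the R24 mean in replicates 1, 2 and 3, and replicate 3 was the lowest M24 array for 67 of the 76. On the M0 arrays the medians stood 2.32, 1.73 and 2.25 above the R0 mean, and replicate 2 was the lowest for 57 of the 76. Without M24 replicate 3 the median enrichment at 24 hr was 2.12 and the median difference 0.09, and the 161 genes with other names moved likewise, to 2.096 and 0.03. The body wall muscle markers were also lowest on that array, as given above, and their part in the lower values was not tested.

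**Figure D4:**
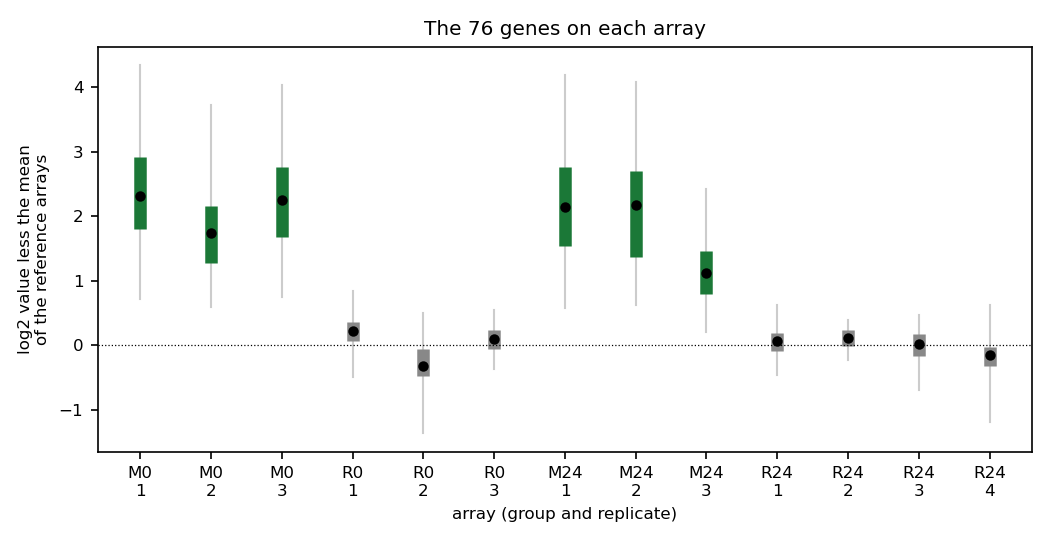
Log2 value of the 76 genes on each array less their mean on the reference arrays of that time (dot, median; thick bar, quartiles; thin line, full range), in the groups M0, R0, M24 and R24 by replicate. M24 replicate 3 has a median of 1.13, against 2.14 and 2.17 on the other M24 arrays.

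The order of the members differed between the times. Of the 10 genes with the largest 0 hr enrichment, 2 were among the 10 largest at 24 hr. The gap between the lowest muscle array and the highest reference array, which the rule required to be above 0, had a median of 1.35 log2 units at 0 hr, from 0.16 in Y105E8A.11 to 3.14 in F09B9.4. At 24 hr, against 4 reference arrays rather than 3, its median was 0.81, from 0.09 in DH11.2 to 2.25 in F08F3.10, and without M24 replicate 3 it was 1.66. DH11.2 shows how narrow a pass could be: it measured 107, 411 and 51.01 on the M24 arrays, against 47.5, 46.6, 48.0 and 36.4 on the R24 arrays. The median SD of the members over replicates was 0.38 in M0, 0.34 in R0, 0.65 in M24 and 0.25 in R24, on the log2 scale.

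**Figure D5:**
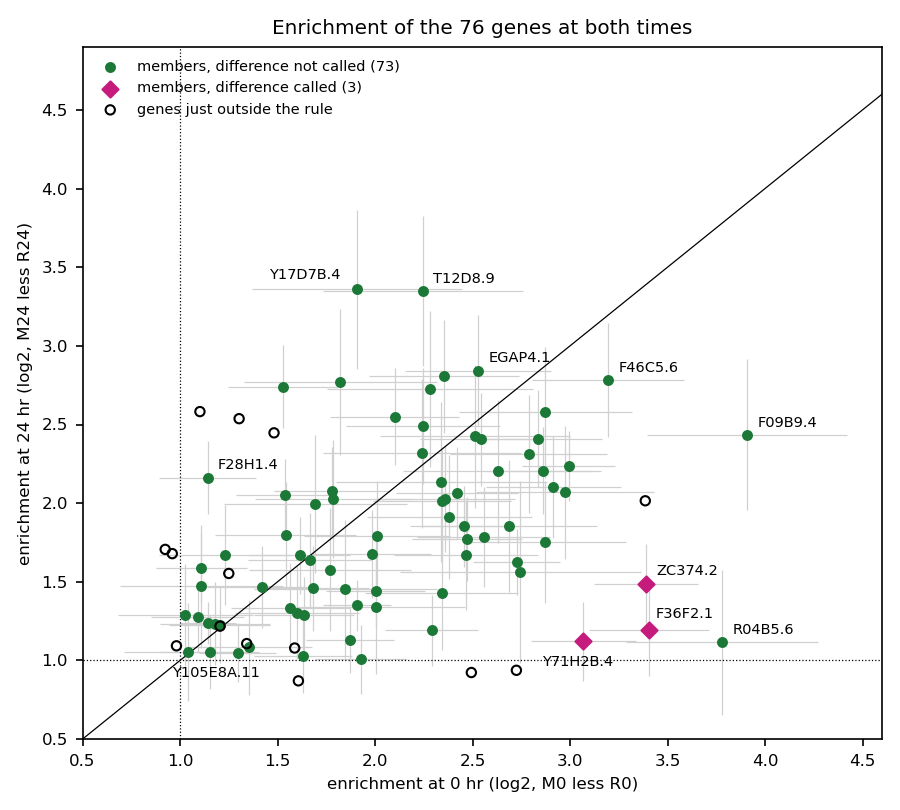
Log2 enrichment at 0 hr (x axis) and 24 hr (y axis) of the 76 genes, with bars of 1 SE, dotted lines at the 2-fold minimum and a line of equal enrichment; open circles are genes with sequence-style names that missed a single part of the rule. Members spread widely about the line, with F36F2.1, ZC374.2, Y71H2B.4 and R04B5.6 at the lower right and Y17D7B.4 and T12D8.9 at the top.

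Some genes came close to the rule on either side. At 0 hr the lowest members were R13H4.2 (1.03), Y105E8A.11 (1.04) and B0273.1 (1.09), and the nearest genes below the fold minimum were F49H12.4 (0.98), M05D6.5 (0.96) and VC5.2 (0.92). At 24 hr the lowest members were C48E7.6 (1.01), C05D2.11 (1.03) and Y73F8A.26 (1.05), and the nearest below were K07B1.4 (0.94), D2007.1 (0.92) and C12D12.3 (0.87). Another 8 genes met both fold minimums but had overlapping arrays, of which ZC412.3 had the largest enrichment (3.39 and 2.01). Of the 76 genes, 59 met the whole rule whichever single array was left out.

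Further probe sets were at hand for 11 of the 76 genes, 18 in all. Their brightness decided which probe set represented the gene, and their enrichment took no part in the choice. In 17 the muscle mean exceeded the reference mean at both times, and 6 met the same fold and separation minimums. K09A9.6 gave 2.74 and 2.04 on a second probe set, beside 2.84 and 2.41 on the brightest, but 0.82 and 0.65 on another. F35A5.1 gave 2.54 and 1.20 on a second and 0.58 and 0.50 on another, beside 2.79 and 2.31. The exception was W05F2.4, with 0.84 at 0 hr and -0.08 at 24 hr on another of its probe sets, against 2.01 and 1.79 on the brightest. Of the 18, 3 exceeded the representing probe set at 0 hr, namely T23E7.2 with 1.81 and 2.13 on others against 1.68, and C32E12.4 with 1.97 against 1.42. At 24 hr 1 did, F42H10.3 with 1.69 against 1.19. The representing probe sets had to pass the rule and the others did not, so nothing is read from this comparison.

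The identity of some probe sets was uncertain. The study's table assigned that of ZK809.8 to its neighbour prx-2, whose span overlaps it in RefSeq, that of C05D2.11 also to daf-4, that of F35A5.1 to K03C7.1 and that of F47B3.3 to F28H1.4, whereas the platform annotation used here names a single gene for each. F28H1.4 was also a member through its own probe set. The pair behaved alike: F28H1.4 had 1.14 ± 0.25 at 0 hr and 2.16 ± 0.23 at 24 hr, and F47B3.3 had 1.53 ± 0.28 and 2.74 ± 0.26. Whether the 2 probe sets read a single transcript cannot be told apart, and they count as 2 of the 76. Probe sets with shared probes (names ending in s_at or x_at) represented 18 members, 16 of the s and 2 of the x kind.

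In the order of protein-coding genes in RefSeq, no 2 members were adjacent. The closest pairs were K08C7.7 and K08C7.6, with 3 genes between them, and F47B3.3 and F28H1.4 and H06I04.6 and Y53G8B.2, each pair with 4. K08C7.6 had 2.63 ± 0.49 and 2.20 ± 0.46, and K08C7.7 had 2.38 ± 0.42 and 1.91 ± 0.40. Among the measured genes next to a member, 3 of 130 met the same thresholds (2.31%), beside 1.51% for the genes next to any gene. These were tnt-2, a troponin T gene next to EGAP4.1 with 1.67 ± 0.52 and 1.76 ± 0.49, nit-1, of the nitrilase family and next to ZK1058.9, with 2.11 ± 0.58 and 3.31 ± 0.54, and sri-19, a chemoreceptor family gene next to Y69E1A.5, with 3.76 ± 0.27 and 1.51 ± 0.25. The spans of nit-1 and ZK1058.9 overlap in the RefSeq annotation, so the transcript that their probes read cannot be told apart. The same holds for other members that overlap a neighbour. Some of these neighbours were raised at 0 hr, such as spp-15 by C48E7.6 (2.645 and 0.62) and gbh-2 by T13H5.1 (1.995 and 1.08). Others were not, such as F46C5.7 by F46C5.6 (-0.30 and -0.07).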

How the data were processed

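The authors converted RNA of sorted cells to biotinylated cRNA by a 2-round amplification, hybridised it to an Affymetrix C. elegans array and deposited robust multi-array average (RMA) intensity values on a linear scale. Arrays of the same time shared 67 to 1417 exact values and arrays of different times at most 18, so the times were treated as normalised separately and compared only through their enrichments. Log2 intensities of 13 arrays and 22548 probe sets were fitted with limma 3.58.1 (R 4.3.3), group means without a block, with Benjamini-Hochberg adjustment over all probe sets; the fit was tested on simulated data. No filter on low values was used, and all 76 members were tested. The platform annotation gave 1 gene for 20766 probe sets, several for 887 and none for 895. Replicates are biological by their labels. Members, gene lists and the rule for genes named in the text (largest mean enrichment, largest differences, nearest the fold minimum, brightest, described class) were chosen with earlier results of these data known. At 0 hr the deviations of same-numbered arrays correlated at 0.22, 0.32 and 0.15. M0 replicate 3 correlated more with R0 replicate 1 (0.27), and M0 replicate 2 shared its scan day with R0 replicate 3. Whether the numbers pair the arrays is thus not settled. The arrays' depth is not defined, and their number limits the precision. Protein and promoter sequences of the members were not analysed here. Tables and figures were made with Python 3.11.15 and matplotlib 3.10.9.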

Additional observations from a re-analysis of the deposited data

Results flagged for a closer look

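The differences of enrichment called above were flagged because the effect of cell type differed between the times by a test of the difference itself: -2.21 for F36F2.1, -1.95 for Y71H2B.4 and -1.90 for ZC374.2, on the log2 scale, 24 hr less 0 hr. In each of them all 3 M0 arrays and all 3 M24 arrays were above their reference arrays, as the rule required of every member. R05D7.1 was flagged for a single R24 array that stood apart from the others: replicate 2 was 798, and the other R24 arrays were 621, 618 and 590, a gap of 0.83 of the whole range on the log2 scale. In R24 the check covered the 39 members taken by the rule for named genes, and R05D7.1 was the only 1 flagged. Members outside that rule were not checked, and chance flags about 1 in 20 groups.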

How the results depend on the processing

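The rule was met by 73 to 89 genes under quantile normalisation, under median centring, with arrays allowed to overlap (84), with the probe set of highest linear mean and with any probe set, by 94 at a 1.7-fold minimum and by 68 to 92 when single arrays were left out; 72 of the 76 remained under median centring and 74 under quantile normalisation. With the 0 hr scan day as a block 81 met the fold minimums, and with the replicate block 83. On 2 scan days a single M0 and a single R0 array were scanned together. Within each of these days 61 of the 76 were at least 2-fold higher. That all 76 were higher there was fixed by the rule. Calls of a larger enrichment at 0 hr, with single arrays left out, ranged from 0 (without R0 replicate 3) to 5 (without M0 replicate 2). Calls of a larger enrichment at 24 hr then ranged from 0 to 3 (without M24 replicate 3). With single arrays left out the median difference ranged from -0.48 to 0.0876, above 0 only without M24 replicate 3, and over the 11 next brightest probe sets it was -0.54. Array weights were estimated gene by gene because the default estimate did not settle. They gave 6 calls in each direction and the least weight to M24 replicate 3. The share over all genes is given only for the fit without weights, so nothing about the members is read from these counts. Of those 11 next brightest probe sets, 0 were called. In the replicate block 2 were called, F36F2.1 and R04B5.6. At 24 hr the deviations of same-numbered arrays correlated at 0.21, -0.04 and 0.38, which does not settle pairing either. Over the 39 members taken by the rule for named genes and all alternatives run, 13 values of a difference gained a call and 10 lost one. No enrichment changed sign, which the rule fixed in advance where single arrays were left out or a scan day was taken alone. At 24 hr no recorded scan day held both M24 and R24 arrays, so scan day and cell type cannot be told apart there. R24 replicates 1, 2 and 3 shared a scan day, each M24 array had its own, and R24 replicate 4 had none recorded. Weak signal limits the dimmest members: 19 of the 76 were below the median probe set in R24.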
